A study of Mus musculus with 14 samples.

Results

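Transcript levels of 7 genes around the p38 MAP kinase module were followed in haematopoietic stem cells (HSCs) sorted from transplanted mice. The genes were given as a list and were grouped by role, with Mapk12 as the kinase, Gadd45b and Gadd45g as activators, Dusp1 and Dusp16 as phosphatases, and Zfp36 and Zfp36l1 as mRNA decay factors. The deposited tables held 6 of the 7 (all but Gadd45g) among 583 genes for the Clu knockout comparison, and 2 of the 7 (Mapk12 and Gadd45g) among 1043 genes for the age comparison, so that Mapk12 was the only member with values in both. Each table held genes that the authors had already called on these same libraries. The presence of a member was therefore itself an outcome, and every p-value below describes a preselected list. The knockout table held fewer genes than the study reports as changed after Clu knockout. Absence from that table, here and below, does not show that a gene was not called. Gadd45g in the knockout comparison, and the other 5 members in the age comparison, were not analysed here.

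The knockout comparison used 7 libraries. Aged HSCs (oHSCs) came from 24-month-old Rosa26-Cas9 mice, whose cells express Cas9 in the control group as well. They were infected with an mCherry lentivirus carrying guides against Clu, which encodes the secreted chaperone clusterin (o_sgClu, n = 4), or a control guide (o_sgCtrl, n = 3), and were transplanted into lethally irradiated CD45.1 recipients aged 2 months. The age comparison used another 7 libraries, from old (o_Tx, n = 4) and young (y_Tx, n = 3) HSCs after transplantation, with old donors over 18 months and young donors of 2 months as the ages given for C57BL/6J mice in the study's methods. The labels do not tie that strain or those ages to these libraries, so both are assumed. HSCs were sorted from recipient marrow 4 months after transplantation. A host that was irradiated and regrafted is a model of stem cell regeneration and not of the undisturbed marrow, knockout cells carried a pool of guides and were no single clone, and both sexes were used in the study. The labels describe the sorted material more broadly as stem and progenitor cells, and do not tie the libraries to separate mice, so the p-values measure the spread between libraries, which may be technical.

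p38 kinases are switched on by stress and inflammatory signals through a cascade of upstream kinases, and pass the signal to transcription factors and to regulators of mRNA stability. In HSCs this pathway is known for its part in ageing, loss of quiescence and stress responses. Gadd45 proteins are small stress-induced proteins that bind and activate the upstream kinase Map3k4. Dusp1 and Dusp16 are dual-specificity phosphatases that remove the activating phosphates from p38 and JNK. Zfp36 and Zfp36l1 bind AU-rich elements in the 3' ends of short-lived mRNAs, often cytokine or growth mRNAs, and bring on their decay. Members of the phosphatase and decay groups are induced by the pathway that they restrain, which makes them feedback inhibitors. The files measure mRNA and hold no kinase activity or phosphorylation.

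The guides that define the knockout are shown because the whole knockout comparison rests on them. Each matched 1 Clu transcript at 1 place, in a coding exon on chromosome 14 (GRCm38 positions), beside an NGG motif. The rest of the genome was not searched for matches. Guide 1 lies in exon 3 at chr14:65973360-65973379 on the plus strand, guide 2 in exon 4 at chr14:65974896-65974915 on the plus strand, and guide 3 in exon 5 at chr14:65975875-65975894 on the minus strand.
Clu guide 1: gagattcagaacgccgtcca
Clu guide 2: agtgtgtaacgagaccatga
Clu guide 3: aacatgttgtggaagctcgg
Clu is no row of the knockout tables, so the labels could not be checked against its level.

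A feature shared by 3 of the 7 genes, and not used in choosing them, is the heptamer TATTTAT, the core of the AU-rich element that Zfp36 proteins recognise. It was searched on the sense strand of the 3' untranslated region (UTR) of 1 GENCODE transcript per gene on GRCm38, and overlapping matches were allowed. It occurred 3 times each in Dusp1, Zfp36 and Zfp36l1, and not in the windows of Mapk12, Gadd45b, Gadd45g or Dusp16. The heptamer was present in 26.1% of 20723 protein-coding genes, in 37.3% of the 499 matched genes of the knockout table, from which all 3 come, and in 15.1% of the 827 matched genes of the age table. Among the genes with a UTR within 20% of the same length it was present in 18.9% for Dusp1, 19.9% for Zfp36 and 38.6% for Zfp36l1, and in 46.3% for Dusp16, which lacks it. The matches are shown with the heptamer in capitals and 7 bases on each side. They are ordered from the stop codon onwards, and all 3 genes lie on the minus strand. In Dusp1 they fall in exon 4 at chr17:26506163-26506183, chr17:26505874-26505894 and chr17:26505678-26505698. In Zfp36 they fall in exon 2 at chr7:28376970-28376990, chr7:28376955-28376975 and chr7:28376930-28376950, the first 2 windows overlapping. In Zfp36l1 they fall in exon 2 at chr12:80108426-80108446, chr12:80108385-80108405 and chr12:80108171-80108191.
Dusp1 first: tggtcctTATTTATttaacac
Dusp1 second: ttaccttTATTTATttttgtg
Dusp1 last: gtttgttTATTTATgatctga
Zfp36 first: ggcccttTATTTATgacgact
Zfp36 second: acgacttTATTTATtgtatta
Zfp36 last: tttatagTATTTATatatatt
Zfp36l1 first: caaaacgTATTTATtgccaaa
Zfp36l1 second: ttgttcaTATTTATcgggatg
Zfp36l1 last: gttggatTATTTATtttagaa
A match describes letters and is not evidence of binding. No decay rate was measured.

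All 6 members held for the knockout comparison had lower mRNA levels in sgClu than in sgCtrl oHSCs. Each passed the limits used (limma on log2(FPKM + 1), unadjusted two-sided p under 0.05, log2 fold change beyond 0.5), and in each the 4 sgClu libraries lay below all 3 sgCtrl libraries. FPKM gives fragments relative to transcript length and library size, so levels can be compared between genes per length. The background was high: 50.1% of the 583 genes were called lower, and 52.5% had sgClu libraries entirely below sgCtrl. The median log2 fold change was -0.64 over the 6 members and -0.52 over the table, so the direction of the group was that of the list it was drawn from. In bulk RNA, fewer cells of a type and less RNA per cell cannot be told apart. On the log2(FPKM + 1) scale the fall was largest for the activator Gadd45b, at place 49 of 583, and smallest for the phosphatase Dusp16, at place 301. This order depends on the scale, since the pseudocount weighs on low genes. By group means the change was -56.2% for Mapk12, -56.1% for Dusp16 and -55.7% for Gadd45b, and -36.8% to -35.5% for the other members.

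**Figure D1:**
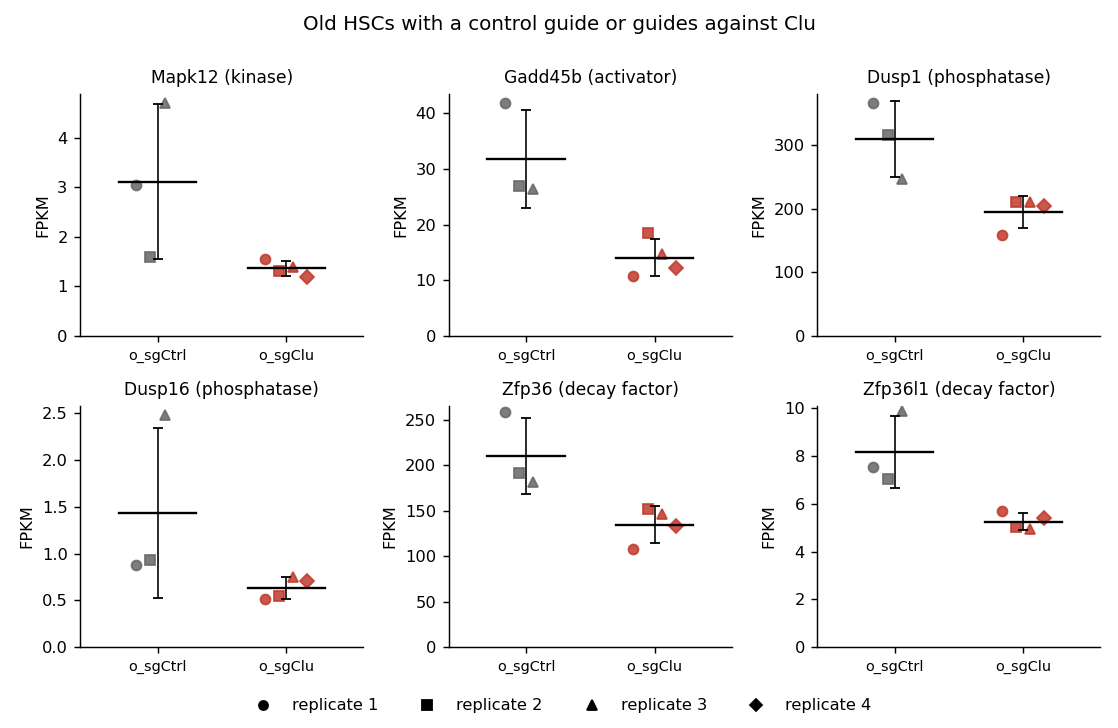
FPKM of the 6 members in each sgCtrl (n = 3) and sgClu (n = 4) library, 1 panel per gene, with horizontal lines at the group mean and error bars of 1 SD. Each panel has its own axis. In every panel the 4 sgClu points sit below the 3 sgCtrl points, closest to each other for Mapk12, where the highest sgClu value was 1.56 and the lowest sgCtrl value 1.59.

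The kinase Mapk12 encodes p38 gamma, the isoform best known from skeletal muscle. Its level was low, at 3.06, 1.59 and 4.70 FPKM in sgCtrl replicates 1 to 3 and 1.56, 1.32, 1.39 and 1.19 FPKM in sgClu replicates 1 to 4. The sgClu libraries were tightly grouped and the sgCtrl libraries were not, with coefficients of variation of 11.3% and 49.9%. The means were 1.36 ± 0.155 (SD, n = 4) and 3.12 ± 1.56 (SD, n = 3). The log2 fold change was -0.73 (SE 0.25, 95% interval -1.29 to -0.16, limma adjusted p = 0.0300). Without sgCtrl replicate 3 the log2 fold change was -0.46, and without sgCtrl replicate 1 it was -0.70, and neither was called. The other p38 isoform genes, Mapk11, Mapk13 and Mapk14, were not rows of either table.

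The activator Gadd45b was present at 41.9, 27.0 and 26.4 FPKM in sgCtrl oHSCs and at 10.8, 18.5, 14.7 and 12.3 FPKM in sgClu oHSCs. This was a clear separation, the highest sgClu value lying well under the lowest sgCtrl value. The means were 14.1 ± 3.36 (SD, n = 4) against 31.7 ± 8.76 (SD, n = 3), a change of -55.7%. The log2 fold change was -1.11 (SE 0.23, 95% interval -1.64 to -0.59, limma adjusted p = 0.00717). It stayed called with any 1 library left out, between -1.25 and -0.90.

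Of the phosphatases, Dusp1 was the most abundant member and Dusp16 the least. Dusp1 was measured at 366.0, 315.1 and 247.1 FPKM in sgCtrl and 158.1, 209.7, 210.2 and 204.1 FPKM in sgClu oHSCs. Replicates 2 to 4 of sgClu were nearly equal and replicate 1 lay apart below them. The means were 195.5 ± 25.1 (SD, n = 4) and 309.4 ± 59.7 (SD, n = 3), a change of -36.8%. On the log2 scale the difference was -0.65 (SE 0.18, 95% interval -1.06 to -0.24, limma adjusted p = 0.0170), and leaving out any 1 library left it called. The exons of Dusp1 overlap those of Ergic1 on the other strand, and the library kit does not mark strand, so reads of the 2 genes there cannot be told apart.

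Dusp16 was measured at 0.884, 0.936 and 2.48 FPKM in sgCtrl and 0.517, 0.544, 0.751 and 0.710 FPKM in sgClu oHSCs. Most of the gap between the means came from sgCtrl replicate 3, and the other sgCtrl libraries were just above the sgClu range. The means were 0.630 ± 0.117 (SD, n = 4) and 1.43 ± 0.909 (SD, n = 3). The log2 fold change was -0.52 (SE 0.22, 95% interval -1.03 to -0.0063), with an unadjusted limma p of 0.0478 and an adjusted p of 0.0602. Dusp16 was the only member that missed an adjusted limit of 0.05, which 5 of the 6 passed with the fold change limit, against 48.2% of the table. Its call was lost without sgCtrl replicate 3, at -0.23, and without each of the 4 sgClu libraries in turn. With a pseudocount of 0.1 in place of 1 the log2 fold change was -0.93, since its values are near the pseudocount.

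The decay factors fell by similar proportions from different levels. Zfp36, which encodes tristetraprolin, was measured at 258.4, 191.6 and 181.7 FPKM in sgCtrl and 107.9, 152.6, 146.7 and 132.8 FPKM in sgClu oHSCs. As with Dusp1, sgCtrl replicate 1 was the highest library and sgClu replicate 1 the lowest. The means were 135.0 ± 19.9 (SD, n = 4) and 210.6 ± 41.7 (SD, n = 3), a change of -35.9%. On the log2 scale this was -0.63 (SE 0.18, 95% interval -1.05 to -0.22, limma adjusted p = 0.0192). Without sgCtrl replicate 1 it was -0.48 and was not called.

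Zfp36l1, a paralog of Zfp36, was measured at 7.53, 7.05 and 9.86 FPKM in sgCtrl and 5.68, 5.01, 4.93 and 5.39 FPKM in sgClu oHSCs. It varied least among the members, with coefficients of variation of 18.4% in sgCtrl and 6.62% in sgClu. The means were 5.25 ± 0.348 (SD, n = 4) and 8.15 ± 1.50 (SD, n = 3), a change of -35.5%. Its difference on the log2 scale was -0.54 (SE 0.14, 95% interval -0.86 to -0.21, limma adjusted p = 0.0158). Without sgCtrl replicate 3 it was -0.41 and was not called. Both decay factor genes overlap exons annotated on the opposite strand, of Gm44710 for Zfp36 and Gm26669 for Zfp36l1. In their transcripts 2.23% and 3.26% of the 50-base words also occur in another gene, a small part that could be counted elsewhere.

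The order of levels was the same in 7 of 7 libraries: Dusp1, Zfp36, Gadd45b, Zfp36l1, Mapk12 and Dusp16. Within sgClu no neighbours in this order overlapped. Within sgCtrl, Dusp1 and Zfp36 overlapped, and so did Mapk12 and Dusp16. The level of Dusp1 was between 1.36 and 1.64 times that of Zfp36 in every library, in both groups, although both fell between the groups.

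By their deviations within groups, pooled over both groups, the 6 members fell into 2 sets. Deviations from the group mean on the log2(FPKM + 1) scale were correlated over the 7 libraries, as a description of libraries that are shared by all the genes. Gadd45b and Zfp36 gave Pearson's r = 0.944, Dusp1 and Zfp36 0.905, and Dusp1 and Gadd45b 0.775. Mapk12 and Zfp36l1 gave 0.852, Dusp16 and Zfp36l1 0.826, and Mapk12 and Dusp16 0.735. Pairs across the sets ran from -0.81 for Dusp1 and Zfp36l1 to -0.028 for Gadd45b and Mapk12. The sets cut across the roles, each holding 1 phosphatase and 1 decay factor, and separated the 3 abundant members from the 3 less abundant ones. The same libraries carried them. In sgCtrl replicate 1 Gadd45b (0.42), Dusp1 (0.26) and Zfp36 (0.31) were high. In sgCtrl replicate 3 Mapk12 (0.54), Dusp16 (0.58) and Zfp36l1 (0.26) were high. Within sgClu alone Dusp16 did not follow its set. It was lowest in sgClu replicate 1 (-0.10), where Mapk12 (0.12) and Zfp36l1 (0.097) were highest.

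**Figure D2:**
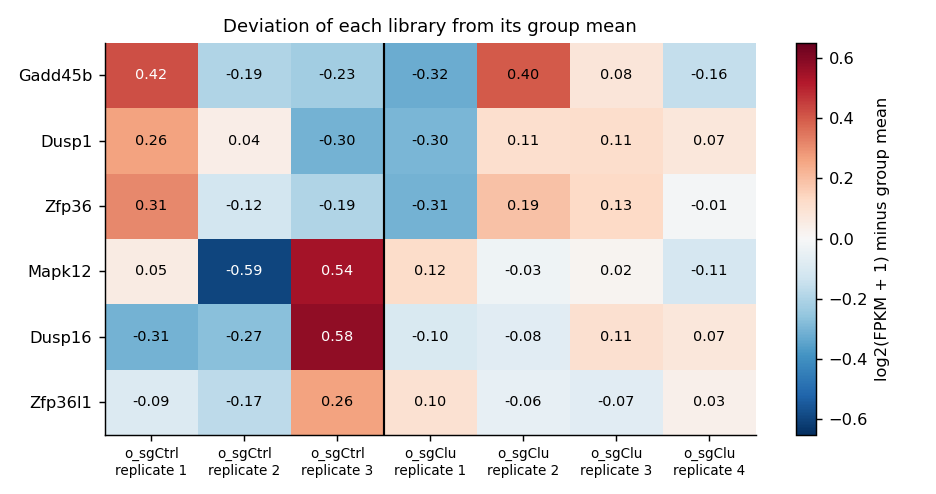
Deviation of each member from its group mean, in log2(FPKM + 1), for each of the 7 knockout libraries. Within their groups, Gadd45b, Dusp1 and Zfp36 were highest in sgCtrl replicate 1 and lowest in sgClu replicate 1, while Mapk12, Dusp16 and Zfp36l1 were highest in sgCtrl replicate 3. Red cells lie above the group mean and blue cells below it.

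The genes of the table with the most similar profiles differed between the sets. For each member the 3 genes with the highest Pearson's r in log2(FPKM + 1) over the 7 libraries were taken, which includes the difference between groups. For Dusp1 they were Ifrd1 (0.995), Btg2 (0.980) and Junb (0.975), and for Zfp36 Ier2 (0.986), Nfkbia (0.984) and Junb (0.980). Junb, a subunit of AP-1, was thus shared by both, and Nfkbia encodes the inhibitor of NF-kB. Btg2, Junb, Ier2 and Nfkbia are also on the list of immediate early genes described further on. For Gadd45b they were Rel (0.987), Lncpint (0.986) and Traf1 (0.980), Rel being a subunit of NF-kB. For Mapk12 they were Itprip (0.990), Tbxas1 (0.977) and Gm37420 (0.975). Tbxas1, the thromboxane synthase gene, returned for Zfp36l1 (0.974) beside Gm37368 (0.986) and Irs2 (0.975). For Dusp16 they were Chd1 (0.991), Fam71a (0.972) and Ttn (0.972). Fam71a, Ttn and Gm37368 were near 0, with sgCtrl means of 0.568, 0.049 and 0.677 FPKM.

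In the age comparison limma called Gadd45g higher in transplanted old than young HSCs and did not call Mapk12. Thus 1 of 2 members was called higher, against 62.5% of the 1043 genes (37.3% with an adjusted p). For 1 of 2 all old libraries lay above all young ones, against 49.7%. Only 10 of the 1043 genes were called lower, so a higher level in old HSCs was largely set by the selection of the list. The activator Gadd45g was measured at 19.4, 37.2, 18.2 and 21.2 FPKM in o_Tx replicates 1 to 4 and 13.5, 14.3 and 10.5 FPKM in y_Tx replicates 1 to 3. Replicate 2 stood well above the other old libraries, and the groups did not overlap. The young mean was 12.7 ± 1.96 (SD, n = 3), and the old mean was 1.88 times as high, with an SD of 8.86 (n = 4). This gave a log2 fold change of 0.81 (SE 0.28, 95% interval 0.20 to 1.43, limma adjusted p = 0.0431), beside a table median of 0.70. It was 0.59 without o_Tx replicate 2 and remained called by the unadjusted limit, with a limma adjusted p of 0.0860. Without y_Tx replicate 3 it was 0.69, with a limma adjusted p of 0.120.

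Mapk12 was measured at 0.579, 2.24, 1.99 and 3.67 FPKM in o_Tx and 0.937, 1.27 and 0.836 FPKM in y_Tx. The old libraries spread from below the lowest young library to well above the highest. The means were 2.12 ± 1.26 (SD, n = 4) and 1.02 ± 0.228 (SD, n = 3). The log2 fold change was 0.54 (SE 0.33, 95% interval -0.20 to 1.27, limma adjusted p = 0.160). The interval includes 0 and also a change of the size measured for Gadd45g. Without o_Tx replicate 1, the lowest library, it was 0.83 and was called, and without o_Tx replicate 4, the highest, it was 0.31. The limma result differs from that of the study, whose DESeq2 test on counts presumably called Mapk12 higher, since the list holds it. The lack of a call here therefore does not show that Mapk12 was unchanged with age. Gadd45g was more abundant than Mapk12 in all 7 libraries.

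**Figure D3:**
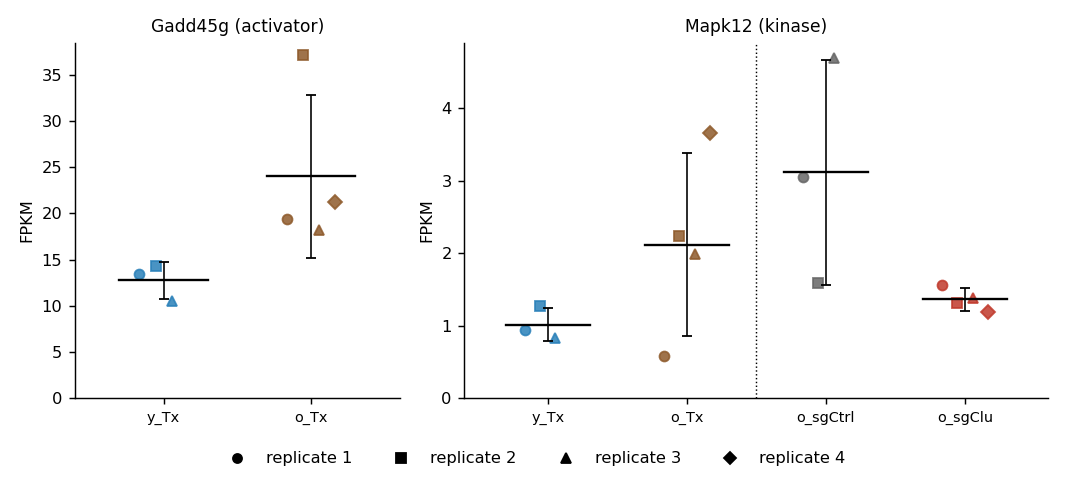
FPKM of Gadd45g and Mapk12 in each y_Tx (n = 3) and o_Tx (n = 4) library, with Mapk12 of the o_sgCtrl (n = 3) and o_sgClu (n = 4) libraries to the right of a dotted line, since that table was made separately. Horizontal lines mark group means and error bars 1 SD. For Gadd45g the lowest old library, at 18.2, lies above the highest young library, at 14.3, while for Mapk12 the old libraries run from 0.579 to 3.67 and enclose the young ones.

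Mapk12 had a mean of 1.02 FPKM in y_Tx, 1.36 in o_sgClu, 2.12 in o_Tx and 3.12 in o_sgCtrl. Only the pairs within an experiment were tested, since the 2 tables were made separately. The coefficients of variation were 59.6% in o_Tx, 49.9% in o_sgCtrl, 22.5% in y_Tx and 11.3% in o_sgClu. Each rests on 3 or 4 libraries at low levels, and the spreads were not compared by a test. For Gadd45g the closest profiles were Sh3gl1 (0.994), Gpaa1 (0.985) and Slc35a4 (0.973). For Mapk12 they were Insrr (0.960), Tgm2 (0.959) and Gm4737 (0.948), none of them among those of Mapk12 in the knockout table. Insrr was near 0, with means of 0.436 FPKM in o_Tx and 0.043 FPKM in y_Tx.

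The size of these differences depended on how the libraries were put on 1 scale. The summed FPKM of the listed genes was 10841 to 12502 in sgClu against 17005 to 18573 in sgCtrl, and 71628 to 84123 in o_Tx against 42199 to 54607 in y_Tx. These sums reflect which genes were listed and are not depths, which are unknown. Rescaling the listed genes by median of ratios, by TMM or by their column totals moved the median log2 fold change of the knockout table from -0.52 to -0.087, -0.07 and -0.12. Under median of ratios and TMM none of the 6 members was called by limma, and none had an unadjusted p under 0.05. Under column totals Gadd45b alone was called, at -0.55. Its log2 fold change was -0.51 and -0.49 under the other scalings. Dusp1, Zfp36 and Zfp36l1 came to within 0.1 of 0 under every scaling, and the sign turned for Zfp36 under TMM (0.014) and for Zfp36l1 under median of ratios (0.0096) and TMM (0.025). In the age table the median moved from 0.70 to 0.069, 0.041 and 0.19, and Gadd45g from 0.81 to 0.04, -0.0024 and 0.18. Such scalings assume that most genes do not change, and these tables hold only genes selected for a change, so neither scale can be checked from the listed genes.

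Relative to the rest of the list, Gadd45b and Mapk12 kept their side under every scaling. Gadd45b lay below the table median by 0.59 as deposited and by 0.42 to 0.43 under the scalings, and Mapk12 by 0.21 and by 0.22. Without sgCtrl replicate 3, however, Mapk12 as deposited lay 0.042 above the median. For the others the side of the median changed with the scaling. Dusp1, Zfp36 and Zfp36l1 lay just below it as deposited, at -0.13, -0.11 and -0.015, and just above it under all 3 scalings. Dusp16 lay 0.0026 above it as deposited and 0.13 to 0.14 below it under the scalings.

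**Figure D4:**
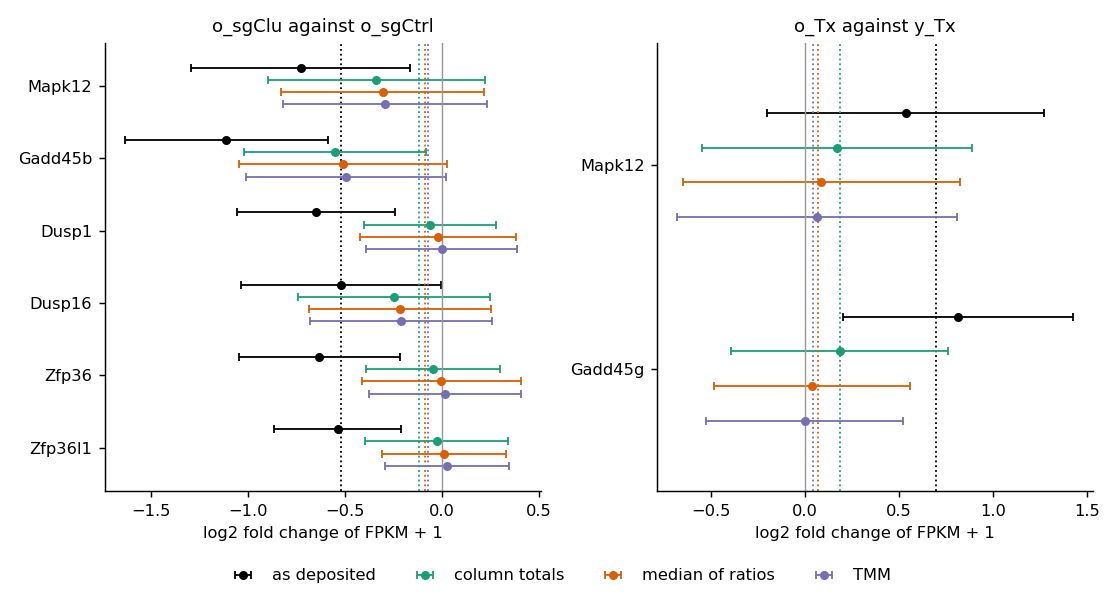
Log2 fold change of each member as deposited and under the 3 rescalings, with 95% intervals from limma, in a panel for each comparison. Dotted lines of the same colours mark the median of the table. Members move together with the median toward 0, and in the knockout panel Gadd45b remains the farthest below it.

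Other genes of the pathway were taken from lists by role. The lists were chosen with earlier results of these data known. Their shares, here and below, therefore describe the lists and test nothing. Outside the members, 33 list genes were rows of the knockout table, of which 31 were lower, none was higher and 2 were not called (Rc3h1 and Lif), beside 50.1% of the table lower and 15.4% higher. Their median log2 fold change was -0.95, against -0.52 over the table. Of these 33, all but 6 belonged to the lists of immediate early genes and of mRNAs with AU-rich elements, and 5 of the 6 were lower. The knockout table held none of the 22 upstream kinases (MAP2K and MAP3K), none of the 7 effector kinases such as the MAPKAP kinases, none of the 9 ERK and JNK genes and none of the 7 ERK feedback genes. From the 14 phosphatases it also held Dusp2, at -0.66 (SE 0.21, limma adjusted p = 0.0277), whose groups overlapped, and Dusp5, which acts on ERK, at -0.86 (SE 0.18, limma adjusted p = 0.00775). Dusp5 was measured at 26.5, 24.1 and 29.4 FPKM in sgCtrl and 16.2, 14.7, 10.3 and 16.5 FPKM in sgClu oHSCs. Of the 12 decay factors it held Rc3h1, which encodes roquin, at -0.35 (SE 0.12).

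Among the transcription factor genes downstream of p38 the knockout rows held 3 of 13, and all 3 were lower. They were Ddit3, the stress factor CHOP, at -1.26 (SE 0.18), Cebpb, a myeloid regulator, at -0.86 (SE 0.23), and the clock gene Per1 at -1.39 (SE 0.25). In the age table Ddit3 (0.95, SE 0.22), Cebpb (1.45, SE 0.28) and Trp53 (0.65, SE 0.24) were higher in old HSCs. Outside the members, 7 list genes were rows of the age table, of which 5 were higher and 2 were not called (Map3k3 and Il6), beside 62.5% of the table higher. Their median was 0.65, against 0.70 over the table.

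The mRNAs known to carry AU-rich elements are the usual targets of Zfp36 proteins. Of 14 listed, 9 were rows of the knockout table and 8 were lower, beside 50.1% of the table, with a median of -0.93. They included Ccl4 (-0.86), Ier3 (-0.56), Il1b (-0.94), Cxcl2 (-1.06), Ptgs2 (-0.68), Vegfa (-1.25) and Il10 (-1.06), while Lif (-0.38) was not called. The list summed to 357.3 to 515.5 FPKM in sgClu and 680.5 to 807.8 FPKM in sgCtrl libraries. Most of that sum came from Ccl4 (means 259.7 and 464.7 FPKM) and Ier3 (means 143.2 and 211.1 FPKM). Decay of these mRNAs, and binding by Zfp36 or Zfp36l1, were not measured.

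**Figure D5:**
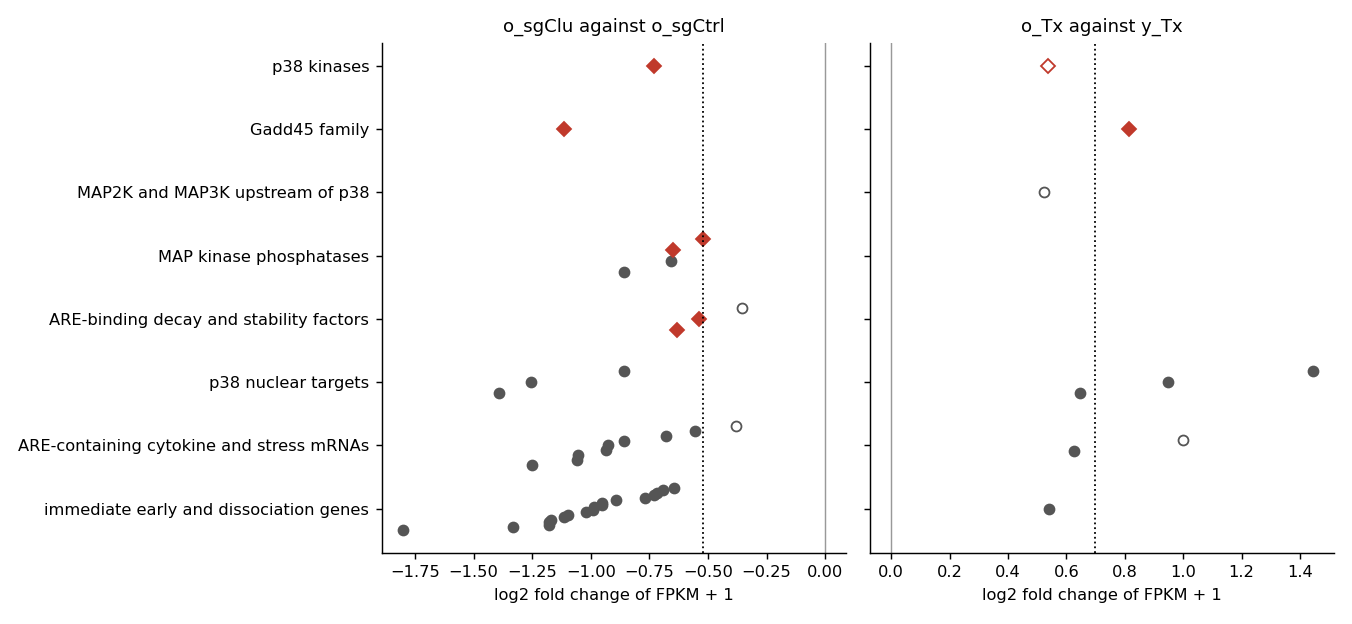
Log2 fold change of each pathway gene held in either table, by list, with members as red diamonds, called genes filled and a dotted line at the table median. The knockout panel lies to the left of 0 for every list gene, and the age panel to the right.

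Immediate early genes, which are also induced when tissue is dissociated and sorted, moved with the members. Of 24 listed, 18 were rows of the knockout table and all 18 were lower, beside 50.1% of the table, with a median of -0.99 against -0.52 over the table. Their summed level was 751.1 to 1044.5 FPKM in sgClu and 1464.4 to 2090.2 FPKM in sgCtrl. Among the age rows 1 of 24 was held, Hspa1b, at 0.54. The part of cell handling in the member results was not tested.

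Markers of other cells moved too. Among the knockout rows, 2 of 14 HSC markers were present, Procr (-0.76, lower) and Fgd5 (-0.63, not called), so the labelled cell type could not be checked from defining markers. Of 13 myeloid markers 4 were rows and 3 were lower, summing to 118.1 to 230.0 FPKM in sgClu and 323.0 to 512.7 FPKM in sgCtrl. Ly6c2 carried most of that sum, with means of 135.6 and 282.3 FPKM and no overlap, whereas S100a8, S100a9 and Cd14 overlapped, sgCtrl replicate 3 lying in the sgClu range for each at 14.2, 1.87 and 7.36 FPKM. Of 8 mast cell and basophil markers 2 were rows, Tpsb2 and Mcpt4. Both are listed at 0 in all 4 sgClu libraries, and their sum ran from 0 to 42.5 FPKM in sgCtrl, the highest being replicate 3, where Mapk12, Dusp16 and Zfp36l1 were also highest. Among the age rows, 2 HSC markers were present, Slamf1 (0.75) and Procr (0.90), both higher in old HSCs. Of all age rows 62.5% were called higher, a direction set by selection, which bears on all the age markers below. There, 7 of the 8 myeloid markers held were higher, summing to 8058 to 11454 FPKM in o_Tx and 4123 to 5174 FPKM in y_Tx. All 6 mast cell and basophil markers held were higher, at 486.7 to 760.9 FPKM against 225.9 to 355.6 FPKM, with Cma1, Tpsb2, Tpsab1 and Mcpt4 listed at 0 in all y_Tx libraries. Of 10 erythroid markers 5 were held and 4 were higher, at 1527 to 2418 FPKM against 808.7 to 1120 FPKM. Of 6 megakaryocyte markers 4 were held and 3 were higher, at 268.7 to 497.8 FPKM against 175.0 to 240.9 FPKM. No B cell marker was a row of either table, and of 7 T and NK cell markers Gzmb alone was held, in the age table, where it was higher. The part of such cells in the member results was not tested.

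Promoter letters were compared because the pooled deviations of the members of each set were correlated. The 250 bases before the RefSeq start (GRCm38.p6), found for all 7 members, were searched on both strands for AP-1 (TGANTCA), CRE (TGACGTCA), C/EBP (TTGCNNAA), CArG box and NF-kB motifs (the last 2 with ambiguous letters). No hits overlapped. A CRE was found in Dusp1 at -143 to -136, against 1.55% of 32817 promoters. A CArG box was found in Zfp36 at -58 to -49, against 1.47%, and an AP-1 motif in Zfp36l1 at -129 to -123, against 6.75%. C/EBP and NF-kB motifs, in 9.57% and 7.25% of promoters, were found in no member, and no motif was found in Mapk12, Gadd45b, Gadd45g or Dusp16. No motif was shared by 2 members. The Dusp1 window is shown because it belongs to the most abundant member. It lies at chr17:26508473-26508722 on the minus strand, with the CRE in capitals.
Dusp1 promoter: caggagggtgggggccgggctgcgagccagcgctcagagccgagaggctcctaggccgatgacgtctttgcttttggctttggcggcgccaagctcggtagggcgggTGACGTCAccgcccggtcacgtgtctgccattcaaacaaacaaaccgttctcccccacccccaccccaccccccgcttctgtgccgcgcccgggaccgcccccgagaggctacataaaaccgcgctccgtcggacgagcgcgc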

How the data were processed

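Libraries were made by the authors with SMART-Seq v4 and Nextera XT, trimmed with TrimGalore, aligned to mm10 with Hisat2, counted with FeatureCounts and tested with DESeq2, without a stated annotation. The deposited values were read as FPKM, which the authors had scaled to transcript length and sequencing depth. No unit stands in the headers, and the values may be TPM. All 14 value columns were used. Depth is unknown: a search of values under 1 FPKM for steps left by whole reads found no common step, so no interval for counting error is given.

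Members and lists were chosen with earlier results of these data known. The planned test allowed for counts. As none were given, limma (version 3.58.1, R 4.3.3) was fitted to log2(FPKM + 1) over every row of a table, separately for each comparison, with no filter. Calls used a two-sided unadjusted p limit of 0.05 and a log2 fold change limit of 0.5, both stated in the study's methods. Adjusted p-values are Benjamini-Hochberg over the table. The fit was tested on simulated data. The named genes are the 7 members, the pathway list genes held, and the 3 closest profiles per member. Alternatives were limma with a trend, a per-gene fit, median-of-ratios, TMM and column-total scaling, a group mean of at least 1 FPKM, a pseudocount of 0.1, adjusted p, a fold change limit of 1, a replicate block and leaving out each library.

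Replicate numbers come from the labels. In the age comparison, the correlation of same-numbered libraries' deviations from their group means was 0.405, 0.163 and 0.161, all over 0.1. The numbers were read there as possible pairs, for the replicate block only. The main fit was unpaired, and no label links an old to a young library. The differently numbered o_Tx replicate 4 and y_Tx replicate 3 reached 0.191, above the last 2 of these.

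Positions are from GENCODE M21 (GRCm38) and promoters from RefSeq. Guides are the study's designed sequences. The control guide's sequence and amino acid sequences were not used here.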

Additional observations from a re-analysis of the deposited data

Results flagged for a closer look

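In groups of 4 libraries, a lowest or highest value was marked where its gap to the nearest other, divided by the whole range, was above Dixon's critical value of 0.829. Of 8 such groups of members, 2 were marked, and chance marks about 1 in 20. Dusp1 in sgClu replicate 1 was low, at 158.1 FPKM, with a gap of 0.883 of the range. Gadd45g in o_Tx replicate 2 was high, at 37.2 FPKM, with a gap of 0.841 of the range. Both genes stayed called by the unadjusted limit with that library left out. The limma adjusted p was then 0.0321 for Dusp1 and 0.0860 for Gadd45g.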

How the results depend on the processing

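Of the 6 members called lower in o_sgClu by limma, 0 remained under median-of-ratios and 0 under TMM scaling, 1 (Gadd45b) under column totals and 1 (Gadd45b) with a log2 fold change limit of 1. Leaving out 1 library gave 3 to 6, with 3 without o_sgCtrl replicate 3. The 1 member called higher in o_Tx, Gadd45g, became 0 under median-of-ratios, TMM and column-total scaling and with a log2 fold change limit of 1, and 1 to 2 with 1 library left out, with 2 without o_Tx replicate 1. No member had an unadjusted p under 0.05 under median of ratios or TMM in either table, nor under column totals in the age table. The sign turned under TMM for Gadd45g (-0.0024), Zfp36 (0.014) and Zfp36l1 (0.025), and under median of ratios for Zfp36l1 (0.0096). The cause was not tested. Over all alternatives the adjusted p ran from 0.00299 to 0.149 for Gadd45b, 0.0142 to 0.992 for Dusp1, 0.0160 to 0.991 for Zfp36, 0.0158 to 0.968 for Zfp36l1, 0.0473 to 0.534 for Dusp16, 0.0252 to 0.999 for Gadd45g, and for Mapk12 from 0.00903 to 0.415 in the knockout and 0.05 to 0.933 in the age comparison. Dusp16 also lost its call in the per-gene fit.

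With the replicate block, which gives no weight to the unpaired replicate 4, Gadd45g was at 0.85 and called and Mapk12 at 0.31 and not called in the age comparison, so the pairing changed no member's call there. In the knockout comparison same-numbered libraries correlated at -0.103, 0.0731 and 0.0578 and share only a number. There the block left 5 of 6 called, Zfp36 (-0.63) losing its call.

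Depth is unknown and 3 against 4 libraries limit the precision. The lists were selected on these libraries.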
